A study of Homo sapiens with 4 samples.

Results

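The complement system was followed through 7 genes, namely the membrane regulators CD46, CD55, CD59 and CR1, the alternative pathway factors CFD and CFP, and C3. They were chosen by symbol, and each symbol matched a single row among the 41084 Ensembl identifiers of the series. The cells were OCI-AML3, an established human acute myeloid leukaemia line grown as 1 line in both groups. Of the 4 libraries, 2 carry the genotype label Plex CEBPB and 2 carry Plex Control. C/EBPβ, the product of CEBPB, is a transcription factor that acts in myeloid and inflammatory gene programmes. The title links it, in a loop with IL-1β and TNFα, to resistance of monocytic leukaemia against BCL2 and MDM2 inhibition. The sources used here do not explain the word Plex, nor do they say how CEBPB was raised or whether either culture was a clone. Nothing in the labels says that the libraries of a group came from separate cultures, so every p below measures the spread between these libraries, which may be technical.

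Complement is a cascade of plasma proteins in which cleavage of C3 deposits C3b on a surface, builds convertases that cleave more C3, and ends in a pore of terminal components. Cells protect themselves with membrane regulators that take convertases apart, help a protease to inactivate C3b, or block the pore. Myeloid cells carry such regulators, read complement fragments through receptors, and make some of the components themselves.

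The stretches before a RefSeq start of CD55 and CR1, the regulators with the largest rise, and of CFD, which fell, are shown here. That of CD59 is shown because it alone held a match when all windows were searched for C/EBP motifs. Each holds the 250 bases before the RefSeq start (GRCh38.p14), read 5′ to 3′ on the gene's strand, and capitals mark a match to a C/EBP motif. The CD55 stretch lies at chr1:207321428-207321677 and that of CR1 at chr1:207495907-207496156, both on the plus strand. The CD55 stretch falls inside the CD55 gene, whose 5′ end in the GENCODE v29 annotation is at 207321376. The CD55 window searched begins after that end, so the bases before it were not searched. That of CD59 lies at chr11:33722950-33723199 on the minus strand and is the stretch of 1 of the 4 CD59 starts listed. It falls inside the CD59 gene, whose 5′ end is at 33736491. The windows that span that end, chr11:33736374-33736673 and chr11:33736430-33736729, held no match. That of CFD lies at chr19:859414-859663 on the plus strand.
CD55: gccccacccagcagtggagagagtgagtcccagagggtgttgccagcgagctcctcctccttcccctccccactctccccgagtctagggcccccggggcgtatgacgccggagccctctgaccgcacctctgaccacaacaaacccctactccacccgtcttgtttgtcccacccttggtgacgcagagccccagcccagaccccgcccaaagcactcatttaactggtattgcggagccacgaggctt
CR1: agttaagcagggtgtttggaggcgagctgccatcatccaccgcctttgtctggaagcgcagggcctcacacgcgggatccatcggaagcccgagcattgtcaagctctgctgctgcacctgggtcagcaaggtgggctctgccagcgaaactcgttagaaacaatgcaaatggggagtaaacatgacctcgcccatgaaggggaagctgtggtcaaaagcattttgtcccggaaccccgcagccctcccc
CD59: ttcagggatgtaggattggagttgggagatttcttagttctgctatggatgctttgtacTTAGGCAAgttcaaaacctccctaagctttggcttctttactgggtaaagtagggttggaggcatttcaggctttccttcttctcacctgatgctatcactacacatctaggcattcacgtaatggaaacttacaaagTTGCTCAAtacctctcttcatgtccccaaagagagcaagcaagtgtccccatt
CFD: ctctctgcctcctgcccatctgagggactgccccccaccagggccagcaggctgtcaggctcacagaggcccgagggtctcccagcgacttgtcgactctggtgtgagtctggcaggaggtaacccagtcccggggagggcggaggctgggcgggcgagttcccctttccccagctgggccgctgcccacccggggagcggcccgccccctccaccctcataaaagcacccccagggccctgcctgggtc

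RefSeq windows of 250 bases before to 50 after the start were found for 6 of the 7 genes, all but C3, in 11 windows. They were searched on both strands for TTGCGCAA, the palindrome that C/EBP factors prefer, for its looser form TTGCNNAA, which includes it, and for TGATGNAA, a composite site of C/EBP and ATF factors. Of all 35116 windows in the table, 0.151% hold TTGCGCAA, 10.5% hold TTGCNNAA and 3.62% hold TGATGNAA. Only the CD59 window printed above held a match among the 11. It held TTGCNNAA on the gene's strand from 53 bases before the start, and on the other strand from 191 bases before it. The GC content of the 250 bases before the start lay between 43.6% and 70.8%, with the lowest value in that same CD59 window. A match describes letters in a window and no site of binding.

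CEBPB itself stood at 536 and 339 TPM in the CEBPB libraries, against 4.72 and 4.47 TPM in the Control libraries (log2 fold change 6.38, SE 0.26, adjusted p = 1.3e-04, edgeR). TPM is a level per transcript length, with the same total in each library. Deposited counts summed to between 18151225 and 21950575 per library. Among 9 myeloid markers CD33 was at 46.9 and 53.0 TPM in the CEBPB libraries, against 47.4 and 46.5 TPM in the Control libraries, and the summed level was 7876 to 8134 TPM against 1716 to 1817 TPM, most of it LYZ. Of the 8 of these markers that could be tested, LYZ and CD14 were called higher, CEBPA (-3.14 on the log2 scale), MPO (-2.43), CSF1R (-1.99), SPI1 (-1.16) and CSF3R (-1.13) lower, and CD33 did not pass, with a median log2 fold change of -1.15. ANPEP stayed under the filter on low counts. Summed levels of 10 erythroid, 8 platelet, 6 epithelial and 7 liver markers did not exceed 3.31 TPM in any library. The 10 markers of T and NK cells summed to 14.1 to 19.9 TPM in the CEBPB libraries, against 27.2 to 29.8 TPM in the Control libraries, with CD3E and CD2 at 0 throughout. NKG7 carried that sum and was lower, while GNLY was higher, at 2.77 and 4.06 TPM in the CEBPB libraries, against 0.0781 and 0 TPM in the Control libraries. The 7 B cell markers summed to 2.52 to 2.99 TPM against 7.16 to 8.09 TPM, with CD22 at 0. The 6 fibroblast markers summed to 103 to 107 TPM in the CEBPB libraries, against 5.42 to 5.48 TPM in the Control libraries. LUM and DCN carried that sum in the CEBPB libraries, and PDGFRB, at 2.63 and 3.03 TPM, was the largest part of it in the Control libraries. COL3A1 had 0 reads in all libraries. The part of these markers in the values below was not tested. In bulk libraries fewer cells of a type and less RNA per cell cannot be told apart.

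All 4 membrane regulators and C3 were higher in the CEBPB libraries, and both CFD and CFP were lower. CD55 rose 7.88-fold and CR1 4.62-fold, C3 rose 2.58-fold and CD59 1.62-fold by the fitted values, and CD46 rose by a little less than CD59. All 7 genes passed the filter on low counts, and 5 were called higher and 2 lower (edgeR's quasi-likelihood test, Benjamini-Hochberg adjusted p under 0.05 over 13698 identifiers). Of all identifiers tested, 48.5% were called, 23.7% higher and 24.7% lower. The 7 genes had non-overlapping TPM between the groups, as did 77.4% of all identifiers tested. Tested against a 1.5-fold change in place of no change, CD55, CR1, C3 and CFD passed (adjusted p from 1.4e-04 to 0.0063), as did 17.3% of all identifiers, 8.66% higher and 8.67% lower. CD46 (adjusted p = 0.678), CD59 (0.187) and CFP (0.123) did not pass in that form of edgeR's test.

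**Figure D1:**
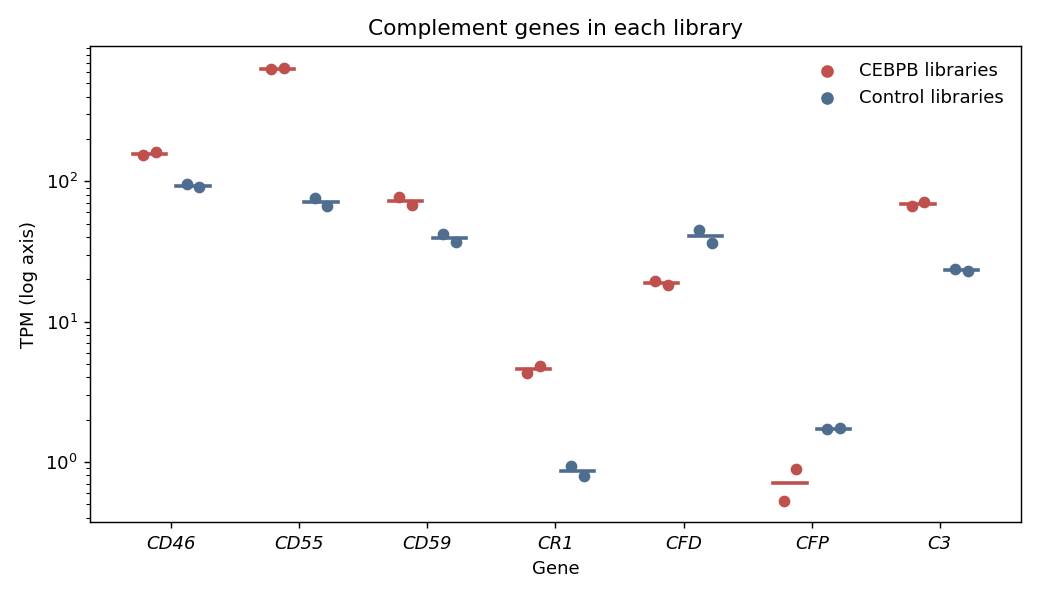
TPM of the 7 complement genes on a log axis, with CEBPB libraries in red on the left of each pair and Control libraries in blue. Points are libraries and bars are group means (n = 2 each). CD55 sits at 628 and 647 TPM in the CEBPB libraries, against 76.4 and 66.7 TPM in the Control libraries, and CFD and CFP are the genes whose red points lie under the blue ones.

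CD55, or decay-accelerating factor, is a glycolipid-anchored protein that speeds the decay of the C3 and C5 convertases. Its identifier ENSG00000196352.18 lies on chromosome 1 from 207321376 to 207386804 on the plus strand (GENCODE v29, GRCh38). CD55 read 628 and 647 TPM in the CEBPB libraries, against 76.4 and 66.7 TPM in the Control libraries. Both CEBPB libraries were far above both Control libraries, and the libraries of each group lay close together. The log2 fold change was 2.98 (SE 0.10, 95% interval 2.73 to 3.23, adjusted p = 9.9e-05, edgeR). In order of TPM over all identifiers, CD55 ranked 196 and 187 in the CEBPB libraries, against 1719 and 1988 in the Control libraries. Its log2 fold change was the 231st from the highest of the 13698 tested.

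CD46, or membrane cofactor protein, helps the protease factor I to cleave C3b and C4b on the cell's own surface. It is encoded by ENSG00000117335.21 on chromosome 1 from 207752057 to 207795513, plus strand. CD46 stood at 154 and 161 TPM in the CEBPB libraries, against 94.97 and 90.4 TPM in the Control libraries. The groups did not overlap, and the difference was small beside that of CD55. The log2 fold change was 0.59 (SE 0.08, 95% interval 0.39 to 0.78, adjusted p = 0.0028, edgeR).

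CD59, or protectin, is a small glycolipid-anchored protein that stops C9 from joining the terminal pore. Its identifier is ENSG00000085063.18, on chromosome 11 from 33703010 to 33736491, minus strand, and in GENCODE v29 the protein-coding AL049629.2 overlaps it on the same strand. CD59 stood at 77.1 and 67.6 TPM in the CEBPB libraries, against 42.0 and 36.9 TPM in the Control libraries. Both CEBPB libraries lay above both Control libraries. Its log2 fold change of 0.70 (SE 0.09, 95% interval 0.47 to 0.93, adjusted p = 0.0026, edgeR) was close to that of CD46.

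CR1, or CD35, is a receptor for C3b and C4b that both dismantles convertases and serves as a cofactor for factor I. Its identifier ENSG00000203710.12 lies on chromosome 1 from 207496147 to 207641765, plus strand. CR1 was scarce, with 4.30 and 4.84 TPM in the CEBPB libraries, against 0.934 and 0.789 TPM in the Control libraries. These levels rested on 453 and 488 recovered reads (TPM multiplied by effective length) in the CEBPB libraries, against 93.2 and 92.1 in the Control libraries. The deposited counts of CR1, which edgeR tested here, were lower, at 94.4 and 87.8 in the CEBPB libraries, against 18.6 and 17.1 in the Control libraries. The log2 fold change was 2.21 (SE 0.27, 95% interval 1.53 to 2.89, adjusted p = 0.0021, edgeR). CR1L, a close paralog that could share reads with CR1, was at most at 0.347 TPM in any library. The antisense gene AL137789.1 overlaps CR1, and the strand setting of the counting is not given in the sources used here.

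Together the 4 membrane regulators summed to 863 and 881 TPM in the CEBPB libraries, against 214 and 195 TPM in the Control libraries. CD55 made up 72.8% and 73.5% of that sum in the CEBPB libraries, against 35.6% and 34.2% in the Control libraries. The share of CD46 was 17.8% and 18.3% in the CEBPB libraries, against 44.3% and 46.4% in the Control libraries. The most abundant regulator transcript was thus CD55 in each CEBPB library and CD46 in each Control library. The ratio of CD55 to CD46 was 4.08 and 4.02 in the CEBPB libraries, against 0.804 and 0.737 in the Control libraries. The ratio of CD59 to CD46 was 0.501 and 0.420 in the CEBPB libraries and 0.442 and 0.408 in the Control libraries, so these groups overlapped.

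**Figure D2:**
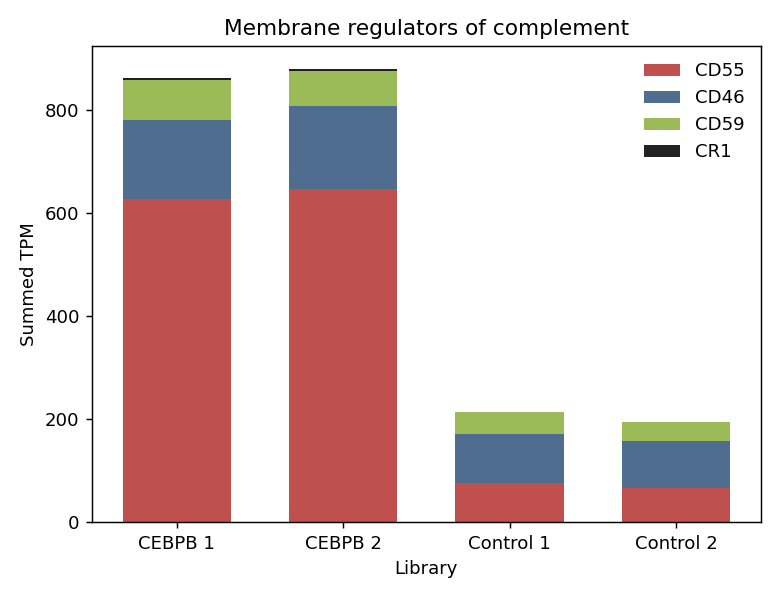
Summed TPM of CD55, CD46, CD59 and CR1 in each library, stacked by gene from 0. The CEBPB bars reach 863 and 881 TPM and the Control bars 214 and 195 TPM, and the red CD55 segment takes 72.8% and 73.5% of the CEBPB bars against 35.6% and 34.2% of the Control bars.

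C3 is the component on which all activation routes converge. Its identifier ENSG00000125730.18 lies on chromosome 19 from 6677704 to 6730562, minus strand, where GPR108 and the sense-intronic AC008760.2 overlap it on the same strand. C3 read 66.3 and 70.8 TPM in the CEBPB libraries, against 23.8 and 23.1 TPM in the Control libraries. The libraries of a group lay close together and the groups were well apart. The log2 fold change was 1.37 (SE 0.09, 95% interval 1.15 to 1.59, adjusted p = 3.5e-04, edgeR).

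CFD encodes factor D, the serine protease that cleaves factor B and so forms the alternative pathway convertase. Its identifier ENSG00000197766.9 lies on chromosome 19 from 859643 to 863630, plus strand, with no other GENCODE v29 gene over it. CFD stood at 19.3 and 18.2 TPM in the CEBPB libraries, against 44.6 and 36.4 TPM in the Control libraries. Both CEBPB libraries were lower than both Control libraries, and the Control libraries differed more from each other than the CEBPB libraries did. The log2 fold change was -1.29 (SE 0.12, 95% interval -1.59 to -0.99, adjusted p = 9.2e-04, edgeR). The ratio of C3 to CFD was 3.43 and 3.89 in the CEBPB libraries, against 0.534 and 0.634 in the Control libraries. C3 was therefore the more abundant of the pair in each CEBPB library and CFD in each Control library.

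CFP encodes properdin, which steadies the alternative pathway convertase and is stored in granules of neutrophils. Its identifier ENSG00000126759.14 lies on chromosome X from 47623172 to 47630305, minus strand, and AL009172.2 overlaps it on the same strand. CFP was near the limit of detection, at 0.529 and 0.882 TPM in the CEBPB libraries, against 1.71 and 1.74 TPM in the Control libraries. On deposited counts the log2 fold change was -1.46 (SE 0.41, 95% interval -2.49 to -0.42, adjusted p = 0.0335, edgeR). This call depended on the unit. CFP held 18.0 and 28.2 recovered reads in the CEBPB libraries, against 42.0 and 31.0 in the Control libraries, and on these reads the log2 fold change was -0.67 (adjusted p = 0.209, edgeR). On recovered reads 30.7% of all identifiers were called lower. CFP also missed the threshold without CEBPB replicate 1 (-1.10, adjusted p = 0.132), without Control replicate 1 (-1.47, adjusted p = 0.159), without Control replicate 2 (-1.43, adjusted p = 0.178) and with DESeq2 (-1.46, adjusted p = 0.0975).

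**Figure D3:**
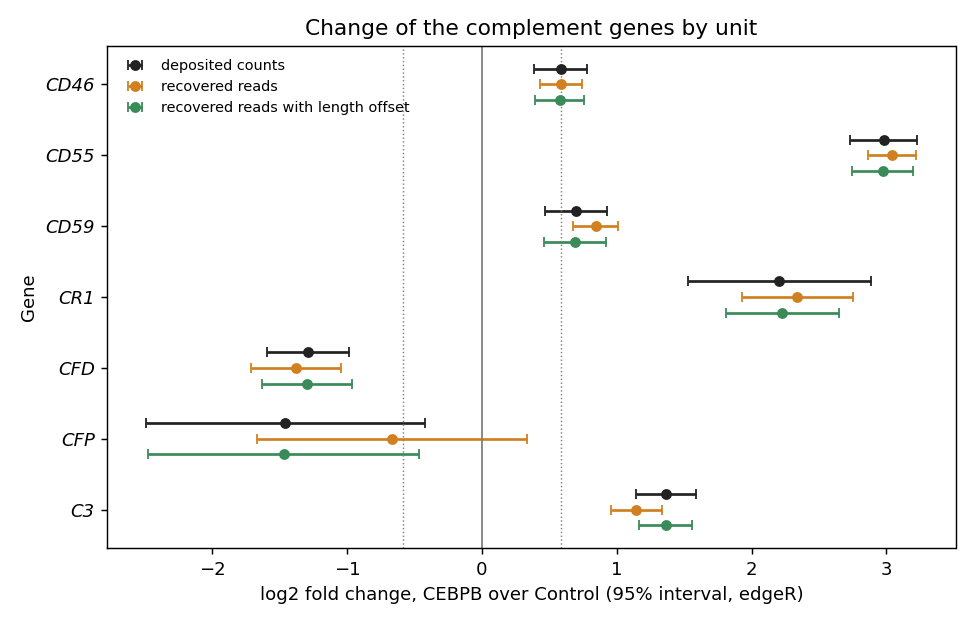
Log2 fold change of each gene, CEBPB over Control, with 95% intervals from edgeR for deposited counts, recovered reads, and recovered reads with a length offset. Dotted lines mark a 1.5-fold change. The length offset divides out the length by which recovered reads were multiplied, so it returns close to deposited counts by construction. CD55 lies near 2.98 in each unit, and CFP is the gene whose interval on recovered reads spans 0, from -1.67 to 0.34.

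Recovered reads are TPM multiplied by the deposited effective length, so the lengths enter that difference between units by definition. CFP had an effective length of 2083 and 2237 bases in the CEBPB libraries, against 1437 and 970 bases in the Control libraries. The groups did not overlap and the mean length was 79.5% greater in the CEBPB libraries, a difference that 1.15% of all identifiers tested equalled or exceeded. GENCODE v29 lists 8 CFP transcripts of 569 to 4040 bases, of which the longest coding one has 1713 bases. Each CEBPB value lay above that coding length, but the annotation release behind the deposited lengths is not given in the sources used here. Which CFP transcripts were counted is therefore not known. With so few reads behind CFP, the weighting of its transcripts rests on 18.0 to 42.0 reads per library. The share of 1.15% is over all identifiers tested, whatever their number of reads, and not over those with as few as CFP.

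Effective lengths of the regulators were also greater in the CEBPB libraries, by less. CD55 was at 1585 and 1574 bases in the CEBPB libraries, against 1408 and 1514 bases in the Control libraries, and CD59 at 1500 and 1447 against 1203 and 1376 bases. CD46 was at 2523 and 2515 bases in the CEBPB libraries, against 2378 and 2480 bases in the Control libraries, and CR1 at 6445 and 7063 against 5841 and 6345 bases. In these genes the groups did not overlap, but the length was longer without overlap in 43.0% of all identifiers tested. CFD and C3 had overlapping lengths. C3 was at 4392 and 3714 bases in the CEBPB libraries, against 4802 and 4293 bases in the Control libraries. With the length as an offset on recovered reads, the log2 fold change was 0.58 for CD46, 2.97 for CD55 and 0.69 for CD59. It was 2.23 for CR1, 1.36 for C3, -1.30 for CFD and -1.47 for CFP. The offset divides out the length by which recovered reads were multiplied. These values therefore return close to those on deposited counts by construction and are no separate check.

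**Figure D4:**
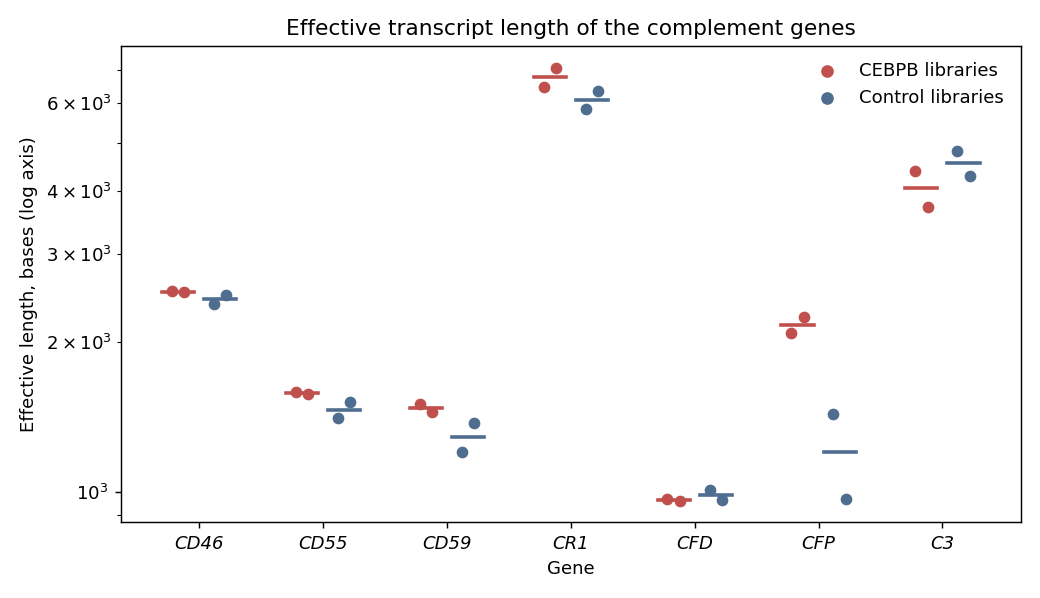
Effective transcript length of the 7 genes in bases on a log axis, CEBPB libraries in red on the left and Control libraries in blue, with group means as bars (n = 2 each). CFP stands out with 2083 and 2237 bases in the CEBPB libraries, against 1437 and 970 bases in the Control libraries, while CFD and C3 overlap between the groups.

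Ordered by TPM in the CEBPB libraries, CD55 came first, then CD46, then CD59 and C3, whose values overlapped, then CFD, CR1 and CFP. In the Control libraries CD46 came first, then CD55, then CFD and CD59, whose values overlapped, then C3, CFP and CR1. The places of CD55 and CD46, of C3 and CFD, and of CR1 and CFP were thus exchanged between the groups.

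CD55, CR1 and CD46 lie near each other on chromosome 1 among genes for regulators built from the same repeated module. Of 8 genes listed for that region, CD55, CR1 and CD46, described above, alone had enough counts to test. The other 5, CR1L, CR2, C4BPA, C4BPB and the neighbouring CD34, were at most at 0.347 TPM in any library.

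A wider list of 52 complement genes, ordered by role, had 20 with enough counts to test. Of these, 8 were higher, 5 were lower and 7 did not pass, with a median log2 fold change of 0.32 against 0.00 over all identifiers tested. Without the 7 genes above, 3 were higher, 3 were lower and 7 did not pass of 13, with a median of -0.07. Shares of 3 and 3 among 13 lie near the 23.7% and 24.7% of all identifiers.

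The recognition molecules and first proteases of the classical and lectin pathways were not measurable. None of 13 such genes had enough counts to test, the highest value being 0.619 TPM for C1S, and 7 of them, C1QA, C1QB and C1QC included, were at 0 in all 4 libraries. Of the activation genes beside C3, CFD and CFP, CFB, whose product is the substrate of factor D, was at 0.0456 TPM in CEBPB replicate 1 and at 0 in the other libraries. C4A (1.23, adjusted p = 0.270), C4B (-0.41, adjusted p = 0.777) and C5 (-0.07, adjusted p = 0.909) did not pass in edgeR. C4A and C4B are near-identical copies, so their values are uncertain. Of the 6 terminal genes, C6, C8A, C8B and C9 were at 0 in all libraries, C7 was at most at 0.0407 TPM, and C8G did not pass (-2.37, adjusted p = 0.113, edgeR).

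Beside CD46, CD55, CD59 and CR1 the list held the membrane regulators SUSD4 and CSMD1, neither with enough counts to test. SUSD4 was at 0 in all libraries and CSMD1 was at most at 0.0157 TPM. Of 8 soluble regulators listed, only CLU had enough counts to test. CLU, which encodes clusterin, an inhibitor of the terminal pore, was at 3.42 and 6.99 TPM in the CEBPB libraries, against 1.66 and 1.10 TPM in the Control libraries (1.74, adjusted p = 0.0264, edgeR). It did not pass without CEBPB replicate 2 (1.09, adjusted p = 0.0955), without Control replicate 2 (1.47, adjusted p = 0.0942) or with limma-voom (1.60, adjusted p = 0.0606). CFI, the gene of the protease that CD46 and CR1 assist, was at 0 in both CEBPB libraries and at 0.115 and 0.0355 TPM in the Control libraries.

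Of 8 tested genes listed as complement receptors, CD93, C1QBP and CALR among them, 2 were higher and 3 lower, beside 23.7% and 24.7% of all identifiers. C3AR1, the receptor of the C3a fragment, stood at 123 and 127 TPM in the CEBPB libraries, against 5.02 and 4.75 TPM in the Control libraries (4.49, adjusted p = 3.9e-05, edgeR). ITGAM, the integrin chain of the C3 fragment receptor CR3, was at 4.54 and 5.23 TPM in the CEBPB libraries, against 1.53 and 0.972 TPM in the Control libraries (1.80, adjusted p = 0.0058, edgeR). ITGAX, that of CR4, was at 1.51 and 0.894 TPM in the CEBPB libraries, against 3.19 and 3.18 TPM in the Control libraries (-1.60, adjusted p = 0.011, edgeR), and missed the threshold without Control replicate 1 (-1.60, adjusted p = 0.0602) or Control replicate 2 (-1.61, adjusted p = 0.0584). Their shared partner ITGB2 did not pass (-0.16, adjusted p = 0.0908, edgeR). CD93, once described as a C1q receptor, fell (-1.31, adjusted p = 5.7e-04), as did C1QBP (-0.95, adjusted p = 3.5e-04, edgeR), whose product is found mostly in mitochondria. C5AR1, a receptor of the C5a fragment, did not pass (1.40, adjusted p = 0.132, edgeR).

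**Figure D5:**
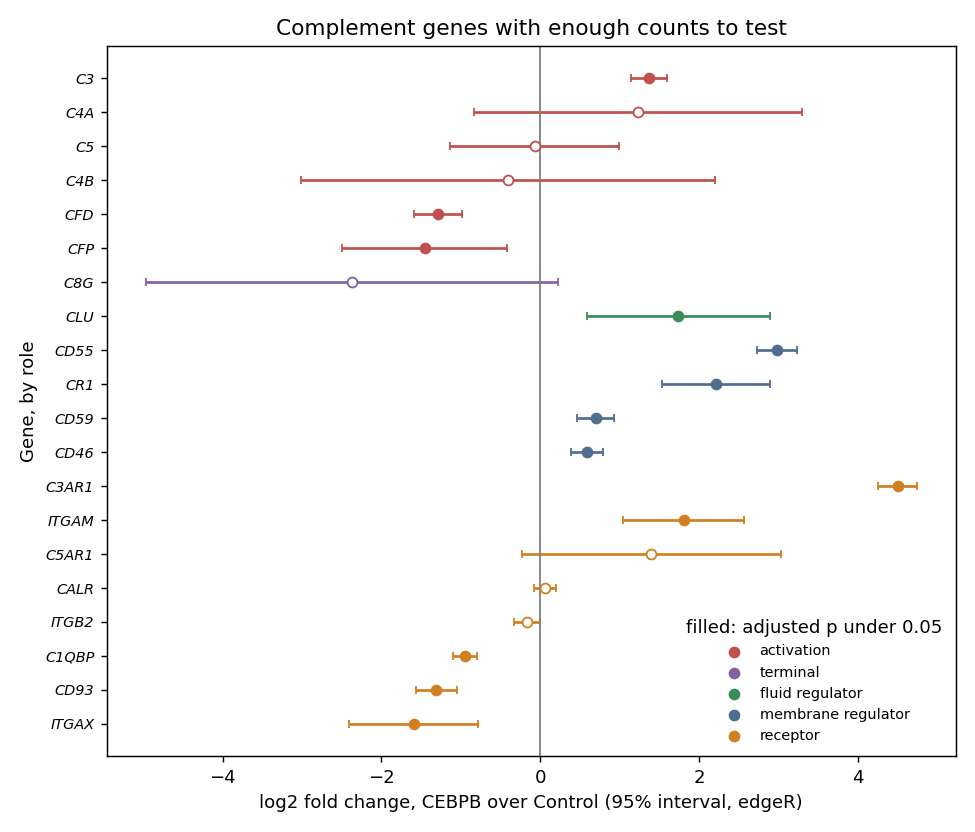
Log2 fold change, CEBPB over Control, of the 20 complement genes with enough counts to test, grouped by role, with 95% intervals from edgeR. Filled points passed an adjusted p of 0.05 and open points did not. C3AR1 (4.49) lies farthest to the right, and the 4 membrane regulators all lie right of 0.

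CD55 and CD59 reach the surface on a glycolipid (GPI) anchor, and the enzymes that make and attach it were listed as well. Of 29 such genes, all of which could be tested, 3 were higher, 8 were lower and 18 did not pass, with a median log2 fold change of -0.23. These shares lie near or under the 23.7% higher and 24.7% lower of all identifiers, and the split depended on scaling. Scaling libraries by their totals alone moves the median of all identifiers to 0.18. In that form 8 were higher and 4 lower, when 65.2% of the calls over all identifiers were higher. On log2(TPM + 1) 8 were higher and 5 lower, when 64.8% of the calls over all identifiers were higher. PIGX, a subunit of the first mannosyltransferase, was at 31.2 and 24.5 TPM in the CEBPB libraries, against 65.4 and 70.8 TPM in the Control libraries (-1.47, adjusted p = 4.8e-04, edgeR). DPM2 (-0.53, adjusted p = 0.0030) and GPAA1 (-0.59, adjusted p = 0.0036, edgeR), a subunit of the transamidase that attaches the anchor, also fell. PIGA, of the enzyme complex that starts the anchor, was at 13.7 and 12.0 TPM in the CEBPB libraries, against 7.06 and 8.34 TPM in the Control libraries (0.56, adjusted p = 0.0211, edgeR). PIGP (0.33, adjusted p = 0.0139) and PIGG (0.45, adjusted p = 0.0336, edgeR) were higher by less. PIGA lost its call without CEBPB replicate 1 (adjusted p = 0.0782) or Control replicate 1 (0.102), PIGP without Control replicate 1 (0.0714) or 2 (0.0939), and PIGG without CEBPB replicate 2 (0.108) or Control replicate 2 (0.148), all in edgeR.

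For each of the 7 genes the named identifier with the most similar levels was found, by the mean absolute difference in log2(TPM + 1) over the 4 libraries. These were TM9SF2 for CD46 (0.0539), CCPG1 for CD55 (0.249), TGFBR1 for CD59 (0.0464), IRX5 for CR1 (0.117), FAM216A for CFD (0.0739), PDCD6-AHRR for CFP (0.0451) and GCLM for C3 (0.0733). CCPG1 was at 550 and 464 TPM in the CEBPB libraries, against 81.9 and 78.3 TPM in the Control libraries, so even the gene nearest to CD55 lay below it in both CEBPB libraries and above it in both Control libraries. A likeness over 4 libraries describes levels only.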

How the data were processed

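RNA of 4 OCI-AML3 libraries was measured after poly(A) selection with a stranded kit, per the labels' protocols. The submitters' processing notes name Trimmomatic 0.39, kallisto 0.46.2 and GRCh38. The annotation release, strand setting and summing to genes are not given in the sources used here. The deposited tables hold TPM, estimated counts and effective lengths in bases, which the authors made with kallisto, per the submitters' processing notes. Each deposited count equals TPM times 1 constant per library, so it carries no transcript length. Recovered reads are the product of TPM and effective length, scaled so that each library keeps its total. A whole number was met to within 0.01 by 58.7% to 60.8% of those from 0.2 to 500.

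Counts were rounded, filtered with filterByExpr, scaled by TMM and tested with edgeR 4.0.16 (R 4.3.3) by the quasi-likelihood F test on group, with Benjamini-Hochberg adjustment over 13698 identifiers. The SE is the log2 fold change over the root of F. Intervals cover the modelled spread of 2 libraries a group. The fit was tested on simulated data. Replicates differed by more than counting error (chi-square over its degrees of freedom 8.86 in CEBPB and 4.66 in Control libraries). Symbols matched 35690 identifiers. Some genes of the lists are not reported here and enter no count of a list. The genes, lists and motifs were chosen with earlier results of these data known. Named genes were the 7, CEBPB, up to 5 complement and 3 GPI genes per direction by smallest adjusted p, the measured genes of the chromosome 1 region, and the nearest identifier of each of the 7. Other genes given with values, such as CFB, CFI, C4A, C5, C8G, ITGB2 and C5AR1, were added after their values were seen. Alternatives were run with DESeq2 1.42.0, limma 3.58.1, other scalings, filters and units, a replicate block, and each library left out.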

Additional observations from a re-analysis of the deposited data

How the results depend on the processing

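CD55, CR1, C3 and CFD kept their direction and their side of the threshold in all 17 alternatives, with log2 fold changes from 2.88 to 3.16 for CD55, 1.58 to 2.38 for CR1, 1.14 to 1.55 for C3 and -1.43 to -1.06 for CFD. CD46 (0.52 to 0.76) and CD59 (0.60 to 0.88) did so in 16 of 17. The alternative with a length offset on recovered reads returns close to deposited counts by construction. In edgeR's test against a 1.5-fold change CD46 (0.59, adjusted p = 0.678), CD59 (0.70, adjusted p = 0.187) and CFP (-1.46, adjusted p = 0.123) were lost. That form called 1186 identifiers higher and 1188 lower, 3 and 1 of the 7 genes, 5 complement genes higher, and 0 and 1 of the GPI anchor genes (0 higher also at an unadjusted p under 0.05, against 3 with edgeR's main test and 1 with DESeq2). CFP did not pass with DESeq2 (-1.46) or recovered reads (-0.67), where 1 of the 7 genes was lower. With 1 library left out, where the library alone in its group is taken to vary as the pair does, CFP ranged from -1.87 to -1.10, the genes lower among the 7 from 1 to 2, the complement genes lower from 3 to 5 (3 without either Control library), and the GPI anchor genes from 1 to 4 higher and 4 to 7 lower. GPI anchor genes numbered 1 higher and 4 lower with DESeq2 and 8 and 4 with library totals. On log2(TPM + 1) and on log2(TPM + 0.1) they numbered 8 higher and 5 lower. They numbered 5 higher and 10 lower with recovered reads, and 5 higher and 8 lower with upper-quartile scaling. Of the calls over all identifiers, 47.4% were higher with DESeq2, 49.8% with recovered reads and 51.2% with upper-quartile scaling. That share was 64.8% on log2(TPM + 1) and 64.9% on log2(TPM + 0.1). Library totals gave 4424 identifiers higher and 2360 lower, 65.2% of calls higher against 49.0% in the main test. CEBPB and the complement and GPI genes named by smallest adjusted p were followed in the same way. Over these genes 201 values kept direction and call, 20 kept the direction and lost the call, and no value changed sign. The nearest identifiers and the other genes given with values were not followed through the alternatives. The causes of these shifts were not tested.

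Same-numbered libraries did not deviate together (correlation of deviations -0.0131). Each group gives only the difference between its own libraries, so this cannot tell whether the libraries were paired, and the labels state no pairing. With a replicate block 3174 identifiers were higher and 3308 lower, and CFP was at -1.48 (adjusted p = 0.0477, edgeR). The block changed no call of the 7 genes. CFP rested on 18.0 to 42.0 recovered reads per library.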
